A study of Mus musculus with 8 samples.

Results

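Outer hair cells are the cells of the organ of Corti that amplify sound, and 7 genes of their motor and of their control by efferent nerve fibres were followed in the cochlear RNA of wild-type mice and of miR-29a knockout mice. The genes were Slc26a5, Strc, Ocm, Ikzf2, Chrna9, Chrna10 and Kcnn2, taken by symbol from the 21895 genes of the deposited table, in which each has 1 row. The question was whether the RNA of genes that serve outer hair cell function differed between the genotypes. It was not found to: none of the 7 passed the test, the largest estimate was a KO level of 0.860 of the WT level for Ocm, and for each gene the KO and WT libraries overlapped.

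The study sequenced cochlear RNA of the mouse in 8 libraries, 4 from WT mice (called WT1 to WT4) and 4 from mice that lack miR-29a on both alleles (miR-29a-/-, called KO1 to KO4). The strain was on the C57BL/6 background, and heterozygous parents were bred to give WT and KO pups. Both sexes were used, and the sex of each library was not stated. The design text gives an age of 21 days, whereas the methods give 2 months. The deficiency was not described as limited to a cell type, so the KO mice lacked miR-29a in other tissues too. Whether a library came from 1 animal or from a pool was not stated, so p-values measure the spread between these libraries, which may be partly technical.

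In the healthy cochlea, outer hair cells change length when their membrane voltage changes, and the motor protein is prestin, the product of Slc26a5. Their longest stereocilia are anchored in the tectorial membrane, and stereocilin, the product of Strc, is needed for that attachment and for the connectors between neighbouring stereocilia. Efferent fibres from the brainstem release acetylcholine onto outer hair cells. There the receptor built from the Chrna9 and Chrna10 subunits lets calcium in, and calcium opens the SK2 potassium channel, the product of Kcnn2, which inhibits the cell. Oncomodulin, the product of Ocm, buffers calcium in these cells, and Helios, the product of Ikzf2, is a transcription factor that maintains outer hair cell identity.

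The deleted miRNA is shown because its seed, bases 2 to 8 in capitals, is what was searched for in the genes. The other mature members of its family, which carry the same seed, are printed beside it.
mmu-miR-29a-3p: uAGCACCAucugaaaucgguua
mmu-miR-29b-3p: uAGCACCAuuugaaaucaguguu
mmu-miR-29c-3p: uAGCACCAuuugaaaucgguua
The sequences are those of RefSeq on GRCm38.p6, where miR-29a-3p lies on the minus strand at chr6:31062673-31062694. The complement of the seed, TGGTGCT, was searched on the sense strand of the longest annotated 3′-UTR of each gene. It occurred in 0 of the 7 genes, against 2963 of 20974 genes with a 3′-UTR (14.1%). The 3′-UTRs searched ranged from 79 bases in Chrna9 to 7554 bases in Ikzf2, and 6 of the 7 were shorter than the median of 1087 bases. The absence of these letters says nothing of other ways in which the miRNA could act on a gene. Its own level was not analysed here, and the labels WT and KO were therefore not tested by it.

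The deposited unit is FPKM, fragments scaled to transcript length and to the mapped fragments of the library, so levels of different genes can be compared per length. The absolute depth is unknown, and the relative depth read from the steps of low values lay between 0.952 and 1.17 of the median library. One library stood apart. WT1 had a median FPKM of 2.68 against 3.18 to 4.0 in the others, its scaling factor by the median ratio of the tested genes was 0.776 against 0.939 to 1.09, and a single gene, Gm8797, held 7.09% of its total FPKM. The tissue label was checked by markers. Hair cell genes (Myo7a from 5.02 to 10.3 FPKM, Otof from 4.16 to 9.40 FPKM) and the supporting cell connexin gene Gjb2 (101 to 241 FPKM) were found in all 8 libraries. So were all 9 listed genes of marrow and blood, none of them at 0 in any library, and their summed FPKM was 12013 in WT1, 1562 in WT2, 223 in WT3 and 2315 in WT4, and from 3802 to 9881 in KO. The marrow and blood sum was therefore highest in WT1 and lowest in WT3, both of them WT libraries, and these libraries recur below.

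Slc26a5 encodes prestin, the motor of outer hair cell length changes. It lies on the minus strand of GRCm38 at chr5:21810655-21865604 (ENSMUSG00000029015, protein-coding). Its FPKM was 1.42, 2.14, 4.04 and 2.17 in WT1 to WT4 and 1.62, 1.78, 2.62 and 2.53 in KO1 to KO4. WT3 was the highest and WT1 the lowest of all 8 libraries, and the 4 KO libraries lay between them. The means were 2.44 ± 1.12 in WT and 2.14 ± 0.510 in KO (SD, n = 4 each). In limma's moderated test on log2(FPKM + 0.1), the log2 fold change of KO against WT was -0.11 with a standard error of 0.33 (adjusted p = 0.983). The 95% confidence interval of the fold ran from 0.549 to 1.55, and true folds anywhere inside it remain compatible with these data. The estimate rested on single libraries: it was -0.33 without WT1, 0.15 without WT3 and 0.00 (0.0016) without KO1, and it passed the test in none of these.

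Strc encodes stereocilin, the protein of the stereocilia tips that meets the tectorial membrane. It lies on the minus strand at chr2:121363728-121387168 (ENSMUSG00000033498, protein-coding). Its FPKM was 0.861, 1.14, 1.80 and 1.36 in WT1 to WT4 and 0.997, 1.08, 1.44 and 1.30 in KO1 to KO4. The order of the libraries was nearly that of Slc26a5, with WT1 lowest and WT3 highest. The means were 1.29 ± 0.395 in WT and 1.21 ± 0.203 in KO (SD, n = 4 each), and the log2 fold change was -0.06 with a standard error of 0.28 (limma, adjusted p = 0.989). It was -0.22 without WT1, 0.11 without WT3 and 0.02 without KO1. The gene overlaps Ckmt1 on the opposite strand by 10 bases, and 0.219% of the 50-base words of its transcripts occur in another gene, so reads shared with other genes could bear on few of its bases.

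Ocm encodes oncomodulin, a small calcium-binding protein that outer hair cells hold in quantity. It lies on the minus strand at chr5:144019804-144026670 (ENSMUSG00000029618, protein-coding). Its FPKM was 14.6, 11.7, 15.7 and 10.4 in WT1 to WT4 and 9.0, 11.0, 13.6 and 11.3 in KO1 to KO4. Here WT1 was the second highest library, whereas it was the lowest for Slc26a5 and Strc, and the lowest was KO1. The means were 13.1 ± 2.47 in WT and 11.2 ± 1.87 in KO (SD, n = 4 each). The log2 fold change of -0.22, with a standard error of 0.18, had the smallest p of the 7 genes in limma, 0.269 before adjustment and 0.954 after it. The interval of the fold ran from 0.642 to 1.15. It was -0.16 without WT1 and below 0 in all 18 settings tried, from -0.33 to -0.12, with p no lower than 0.132.

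The ratio of Ocm to Slc26a5 FPKM was 10.3 in WT1 and between 3.89 (WT3) and 6.19 (KO2) in the other 7 libraries. The level of Ocm in WT1 thus did not go with that of the motor gene. Oncomodulin has also been described in neutrophils and macrophages. In WT1 the neutrophil gene S100a8 reached 2821 FPKM against 17.2 to 1731 in the other libraries. It was lowest in WT3 (17.2 FPKM), the library with the highest Ocm in FPKM as deposited (15.7 FPKM). The part of these blood cells in the Ocm level was not tested.

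Ikzf2 encodes Helios, the transcription factor of outer hair cell identity, which regulatory T cells also use. It lies on the minus strand at chr1:69531214-69687245 (ENSMUSG00000025997, protein-coding). Its FPKM was 3.40, 4.96, 5.86 and 4.81 in WT1 to WT4 and 4.16, 5.02, 4.64 and 4.38 in KO1 to KO4. The KO libraries lay close together and inside the range set by WT1 and WT3. The means were 4.76 ± 1.02 in WT and 4.55 ± 0.372 in KO (SD, n = 4 each). The log2 fold change was -0.04 with a standard error of 0.19 (limma, adjusted p = 0.989), and the interval of the fold ran from 0.716 to 1.32, the narrowest but 1 of the 7. It was -0.19 without WT1, 0.07 without WT3 and 0.00 (0.00088) without KO1. The gene is overlapped by 3 annotated genes that were not analysed here, as are Chrna9 by 2 and Kcnn2 by 4.

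**Figure D1:**
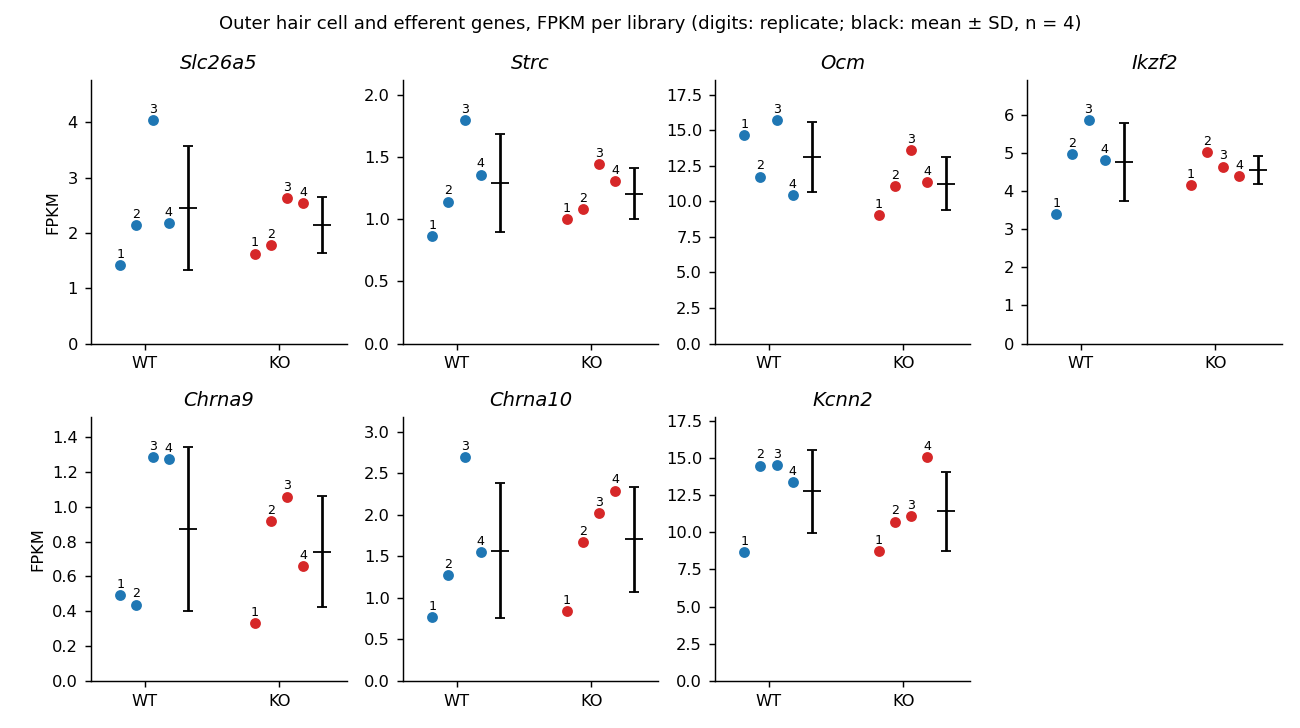
FPKM of each of the 7 genes in the 4 WT libraries (blue) and the 4 KO libraries (red), with the replicate number above each point and the mean ± SD in black. For every gene the KO and WT points overlap, and WT3 is the highest library for 6 of the 7 genes.

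The receptor genes of the efferent synapse were the most variable. Chrna9, which encodes a subunit of the acetylcholine receptor at that synapse, lies on the plus strand at chr5:65934921-65977326 (ENSMUSG00000029205, protein-coding). Its FPKM was 0.491, 0.437, 1.28 and 1.27 in WT1 to WT4 and 0.333, 0.918, 1.06 and 0.660 in KO1 to KO4. The WT libraries formed a low pair and a high pair, and the KO libraries covered nearly the same span. The means were 0.871 ± 0.471 in WT and 0.742 ± 0.318 in KO (SD, n = 4 each), and the log2 fold change was -0.16 with a standard error of 0.47 (limma, adjusted p = 0.983). The interval of the fold, 0.428 to 1.88, was the widest of the 7 on the log2 scale, and true folds anywhere inside it remain compatible with these data. The estimate was -0.35 without WT1, 0.06 without WT3, 0.05 without WT4 and 0.13 without KO1. As the gene of lowest level, it was not tested at a minimum mean of 1 FPKM.

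Chrna10 encodes the partner subunit. It lies on the minus strand at chr7:102111266-102116828 (ENSMUSG00000066279, protein-coding). Its FPKM was 0.766, 1.27, 2.69 and 1.55 in WT1 to WT4 and 0.842, 1.67, 2.02 and 2.29 in KO1 to KO4. WT1 and KO1 were low, WT3 and KO4 were high, and the other 4 libraries lay between them. The means were 1.57 ± 0.816 in WT and 1.71 ± 0.630 in KO (SD, n = 4 each). This was the only gene of the 7 with an estimate above 0, a log2 fold change of 0.16 with a standard error of 0.43 (limma, adjusted p = 0.983), and it was -0.12 without WT1 and -0.01 without KO4. Art1 overlaps it by 2668 bases on the opposite strand and had 0.846 to 6.56 FPKM. Whether the counting used the strand was not stated, so reads of these genes may not have been told apart.

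Chrna10 exceeded Chrna9 by 0.80 ± 0.48 in WT libraries and by 1.11 ± 0.39 in KO libraries on the log2 scale (SD, n = 4 each). The difference of 0.32 did not pass an exact two-sided permutation test (p = 0.314, 0.8 after adjustment over the 3 ratios tested). Chrna10 had the higher FPKM in 8 of 8 libraries. The smallest p that 4 against 4 libraries allow in this test is 0.0286.

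Kcnn2 encodes SK2, the calcium-activated potassium channel that follows the receptor. It lies on the plus strand at chr18:45268860-45686024 (ENSMUSG00000054477, protein-coding). Its FPKM was 8.66, 14.5, 14.5 and 13.4 in WT1 to WT4 and 8.74, 10.7, 11.1 and 15.04 in KO1 to KO4. WT1 and KO1 were nearly equal and lowest, 3 WT libraries lay close together above them, and KO4 was highest. The means were 12.7 ± 2.78 in WT and 11.4 ± 2.64 in KO (SD, n = 4 each), and the log2 fold change was -0.16 with a standard error of 0.22 (limma, adjusted p = 0.977). It was -0.33 without WT1 (limma, adjusted p = 0.334), -0.04 without KO1, -0.09 without WT2 and -0.09 without WT3, and below 0 in all 18 settings. Kcnn2 is also used by neurons, and the share of its RNA that came from outer hair cells was not measured.

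As a group, 7 of 7 genes passed the filter of a mean of at least 0.5 FPKM, and 0 of 7 were called at an unadjusted p under 0.05, the threshold of the study, against 5.12% of the 14990 genes tested (767 genes). Of these, 691 (90.1%) were higher in KO, a share that was 52.5% after median-ratio scaling. After adjustment 0 genes of the table passed (0%). The groups did not overlap in 0 of the 7 genes and in 3.5% of all tested genes. The estimate was below 0 for 6 of the 7 genes, with a median log2 fold change of -0.11, against 33.5% of all tested genes and a median of 0.10. This count turned on single libraries. It was 7 of 7 without WT1 or without KO4, and 2 of 7 without WT3 or without KO1. Without WT1 the background itself moved, with 19.5% of tested genes called, yet 0 of the 7 genes were among them. Under median-ratio scaling, which brought the median of all genes to 0.00 (0.0043), the estimate was below 0 for 6 of the 7.

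**Figure D2:**
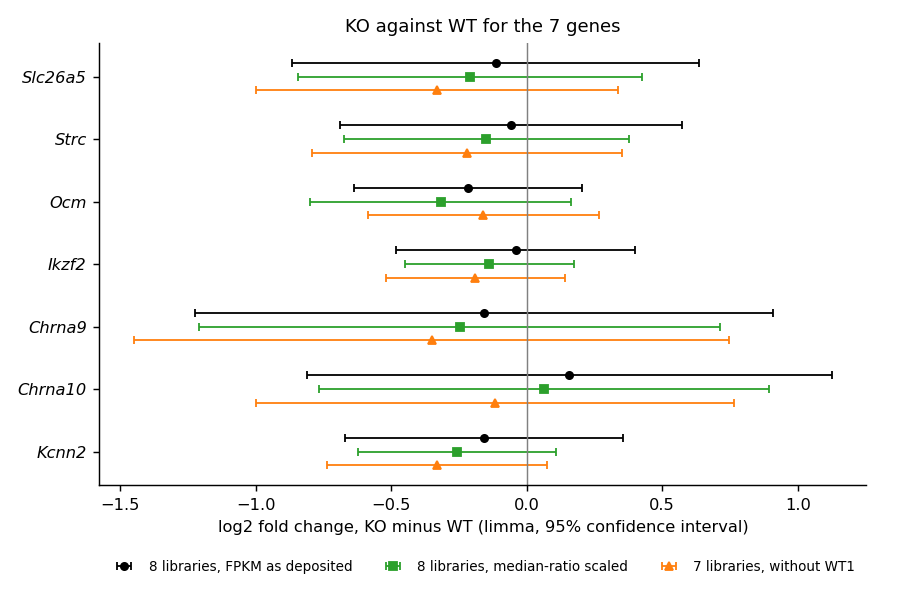
Log2 fold change of KO against WT for the 7 genes with its 95% confidence interval from limma, for the 8 libraries as deposited (black), after median-ratio scaling (green) and without WT1 (orange). Each of the 21 intervals crosses 0, and the interval is widest for Chrna9 and Chrna10.

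Per length, Ocm (mean of 12.2 FPKM over the 8 libraries) and Kcnn2 (12.1 FPKM) had the highest levels. They could not be ordered, since Ocm was above Kcnn2 in 5 of 8 libraries. Ikzf2 followed at 4.65 FPKM, with a range that did not overlap that of Kcnn2. Slc26a5 (2.29 FPKM), Chrna10 (1.64 FPKM), Strc (1.25 FPKM) and Chrna9 (0.807 FPKM) came after it. Ikzf2 lay above Slc26a5, Slc26a5 above Chrna10 and Strc above Chrna9 in 8 of 8 libraries each, whereas Chrna10 lay above Strc in 6 of 8. The motor gene of the outer hair cell was thus less abundant per length in whole cochlear RNA than its calcium buffer in every library.

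The libraries differed in these genes within each genotype. All 7 were above their own mean in WT3, and 0 of 7 were in KO1. In WT1 only Ocm was above its mean, and WT1 was the lowest library for 5 of the 7. That low point holds for FPKM as deposited: after median-ratio scaling WT1 was the lowest library for 0 of the 7, the lowest were KO1, KO2 or KO4, and Ocm was highest in WT1 (18.9 scaled FPKM). The ratio of the highest to the lowest library was 3.85 for Chrna9, 3.52 for Chrna10, 2.85 for Slc26a5, 2.09 for Strc, 1.75 for Ocm, 1.74 for Kcnn2 and 1.72 for Ikzf2. Bulk RNA cannot tell fewer outer hair cells, or less organ of Corti in the dissected piece, from less RNA of these genes per cell. The marrow and blood sum moved against this pattern, since it was highest in WT1 and lowest in WT3, and its part in the levels was not tested. KO3 departs from this opposition, with the second highest marrow and blood sum and 6 of the 7 genes above their means. The low WT1 and the high WT3 were not particular to the 7 genes. In FPKM as deposited, the listed genes of all hair cells summed to 55.3 in WT1 and 97.8 in WT3. Supporting cell genes summed to 250 and 508, and spiral ganglion neuron genes to 436 and 1299. Each of these sums was lowest in WT1 and highest in WT3. The inner hair cell sum was lowest in WT1 but highest in KO4, and the bone sum was lowest in WT3.

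**Figure D3:**
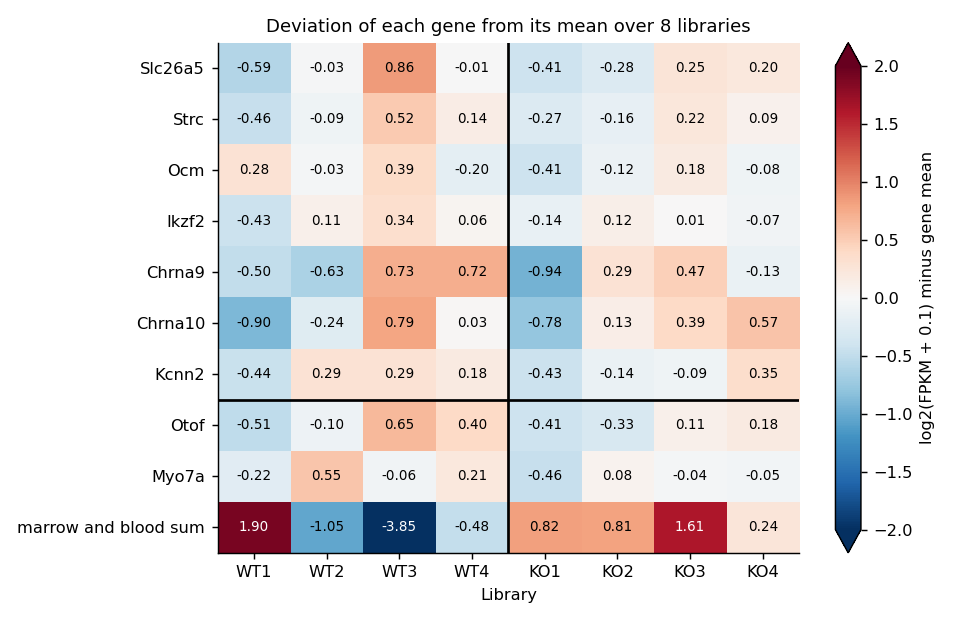
Deviation of each gene from its own mean over the 8 libraries on the log2(FPKM + 0.1) scale, for the 7 genes, the hair cell genes Otof and Myo7a and the summed FPKM of 9 marrow and blood genes. Red is above and blue below the mean, colours stop at 2, and the column of WT3 is red for all 7 genes while the marrow and blood sum there is 3.85 below its mean.

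Correlations over the 8 libraries were computed for Slc26a5 with 9 other measures, a choice made after the values had been seen, and p-values are from exact permutation tests with Benjamini-Hochberg adjustment over the 9. Each test compares a pair with no correlation at all. The share of all tested genes with an r as high was not computed, so a low p does not mark a relation as particular to a pair. Outside the 9, Lhfpl3 (r = 0.980) and Gas2 (r = 0.974) were above them all. Of the 9, Strc followed Slc26a5 most closely (Pearson r = 0.970, p = 0.000124, adjusted p = 0.00112, Spearman rho = 0.976, p = 0.000397, adjusted p = 0.00357), and r was 0.913 without WT1 and WT3, the libraries farthest from the median. The inner hair cell gene Otof, which encodes the calcium sensor of transmitter release, came next (r = 0.910, p = 0.00154, adjusted p = 0.00573, rho = 0.905, p = 0.00456, adjusted p = 0.0137). Without WT1 and WT3 its r was 0.778. Chrna10 was alike (r = 0.887, p = 0.00191, adjusted p = 0.00573, rho = 0.905, p = 0.00456, adjusted p = 0.0137, and r = 0.809 without WT1 and WT3). After median-ratio scaling r was 0.963 for Strc (exact p = 0.000868, adjusted p = 0.00781), 0.872 for Otof (p = 0.00459, adjusted p = 0.0206) and 0.809 for Chrna10 (p = 0.00756, adjusted p = 0.0227). The rank correlations did not pass adjustment on that scale (exact tests, rho = 0.881, 0.786 and 0.714, adjusted p = 0.0652, 0.126 and 0.156). Without WT3 and KO2, the libraries then farthest from the median, r was 0.814 for Strc, 0.565 for Otof and 0.970 for Chrna10.

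Kcnn2 (r = 0.748, exact p = 0.0278, adjusted p = 0.0449, rho = 0.786, p = 0.0279, adjusted p = 0.0628) kept an r of 0.669 without WT1 and WT3. Ikzf2 did not keep its relation. Its r was 0.777 (exact p = 0.0300, adjusted p = 0.0449, rho = 0.548, p = 0.171, adjusted p = 0.220) and 0.093 without WT1 and WT3, so that it rests on those libraries. Neither relation passed the exact test after median-ratio scaling, where r was 0.621 for Kcnn2 (p = 0.0782) and 0.658 for Ikzf2 (p = 0.115).

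Chrna9 (r = 0.650, exact p = 0.0767, adjusted p = 0.0986, rho = 0.738, p = 0.0458, adjusted p = 0.0825, r = 0.471 without WT1 and WT3) did not pass on either scale after adjustment. Ocm did not follow Slc26a5 over the 8 libraries (r = 0.468, exact p = 0.242, adjusted p = 0.272, rho = 0.381, p = 0.360, adjusted p = 0.405), and its r was 0.795 without WT1 and WT3. After median-ratio scaling its r was 0.369, and -0.133 without WT3 and KO2. Myo7a, a myosin gene of all hair cells, did not follow Slc26a5 either (r = 0.217, exact p = 0.609, adjusted p = 0.609, rho = 0.238, p = 0.582, adjusted p = 0.582, r = 0.329 without WT1 and WT3), and its sign turned after scaling (r = -0.106). Myo7a was lowest in KO1 and highest in WT2 and does not stand for other genes of all hair cells. The sum of the 15 such genes listed was, like Slc26a5, lowest in WT1 (55.3 FPKM) and highest in WT3 (97.8 FPKM). The correlations of the others with Slc26a5 were not computed. For Slc26a5 with the marrow and blood sum r was -0.770 (exact p = 0.0298, adjusted p = 0.0449, rho = -0.548, p = 0.171, adjusted p = 0.220). It was 0.013 without WT1 and WT3, so that this relation too rests on those libraries. After median-ratio scaling r was -0.760 and did not pass adjustment (exact p = 0.0442, adjusted p = 0.0994).

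**Figure D4:**
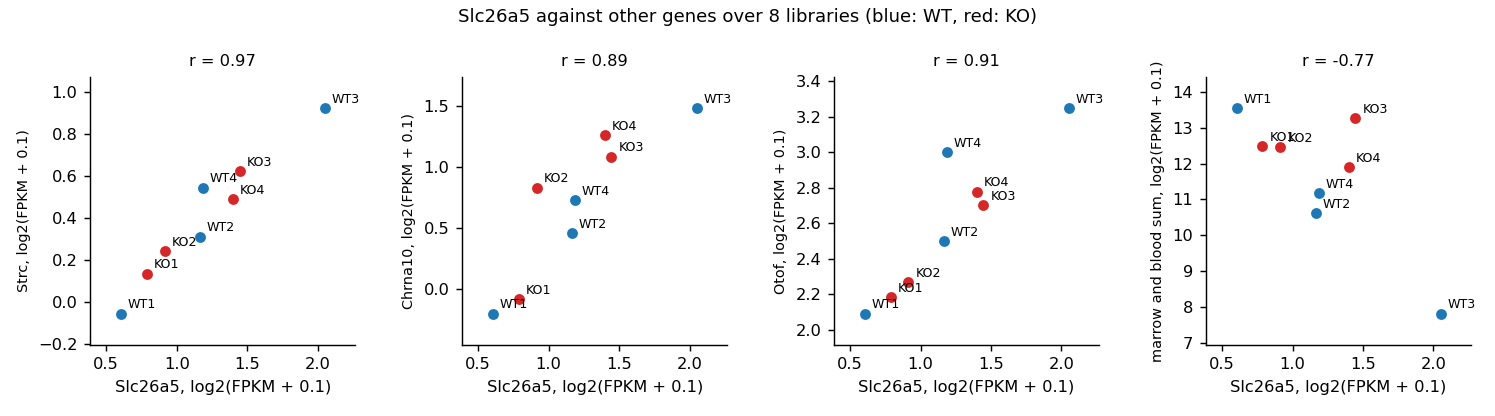
Slc26a5 on the x axis against Strc, Chrna10, Otof and the marrow and blood sum on the y axes, all as log2(FPKM + 0.1), with 1 point per library (blue WT, red KO). Strc, Chrna10 and Otof are, like Slc26a5, lowest in WT1 and highest in WT3 in FPKM as deposited (r = 0.970, 0.887 and 0.910), while after median-ratio scaling Slc26a5 and Strc are lowest in KO2 and Chrna10 in KO1, whereas the marrow and blood panel (r = -0.770) is spanned by WT1 and WT3.

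Among the members themselves, the pair after Slc26a5 and Strc was Chrna10 with Strc (r = 0.895 over 8 libraries). Both receptor subunit genes had r = 0.757 with each other. The lowest values were those of Ocm with Ikzf2 (r = 0.113) and with Kcnn2 (r = 0.151). All points come from the same 8 libraries, so these values share each library's dissection and depth.

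Genes outside the 7 were ranked by the same measure among all tested genes. The closest to the mean of the standardised 7 genes, over 8 libraries, were Bbs4 (r = 0.981), a gene of the ciliary BBSome, Arl14ep (0.981), Cyp39a1 (0.981), Gas2 (0.979), Tmem59 (0.973), Nceh1 (0.969), Eif2b5 (0.969), Twf1 (0.968), Kank4 (0.966) and Akr1a1 (0.966). For single genes, Slc26a5 was followed most closely by Lhfpl3 (r = 0.980), Gas2 (0.974) and 1700028J19Rik (0.969). Strc was followed by 1700028J19Rik (0.975), Egf (0.970) and Otogl (0.967), the last of which encodes a protein of the tectorial membrane. Gas2, a gene of the microtubule and actin skeleton, was thus near the motor gene and near the mean of the 7.

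The genes closest to Chrna10 were Atp6ap1 (r = 0.981), Cldn9 (0.980), a tight junction gene of the inner ear, and Klhl40 (0.977). Those closest to Chrna9 were Timm22 (0.981), Agr3 (0.980) and Trp53tg5 (0.975). Those closest to Kcnn2 were Scara3 (0.992), Atp6v1g2 (0.984) and Clcn2 (0.983), and those closest to Ikzf2 were Aldh6a1 (0.997), Erbb3 (0.994) and Cacna1h (0.993). Those closest to Ocm were Lgals4 (0.977), Ube2a (0.945) and Hgf (0.905). The only gene named for more than 1 member was 1700028J19Rik, for Slc26a5 and Strc. With 8 points and 14990 genes, high values of r are found for any pattern, and these are given without a test.

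Slc26a5 was also set against hair cell genes within each library, which removes scaling between libraries. The log2 ratio of Slc26a5 to Otof, an outer against an inner hair cell gene, averaged -1.46 ± 0.26 in WT libraries and -1.35 ± 0.06 in KO libraries (SD, n = 4 each). The difference of 0.11 did not pass the exact two-sided permutation test (p = 0.543, adjusted p = 0.8). The KO libraries lay between -1.40 (KO1) and -1.26 (KO3), and the WT libraries between -1.81 (WT4) and -1.20 (WT3). The log2 ratio of Slc26a5 to Myo7a averaged -1.69 ± 0.67 in WT libraries and -1.57 ± 0.30 in KO libraries (SD, n = 4 each), a difference of 0.12 (exact p = 0.8, adjusted p = 0.8). Neither ratio separated the genotypes, and each rests on a single gene per cell type. The listed otoconia and vestibular genes summed to 1.51 FPKM in WT1 and 11.2 FPKM in WT3, and the part of vestibular tissue in these ratios was not tested.

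The neighbours of these genes in pathway and family were read from lists by symbol. Of 127 listed genes, 108 were tested and 6 were called (5.56%), 5 higher and 1 lower in KO, a share near the 5.12% of all genes. Without WT1, 31 of the listed genes were called, in a fit that called 19.5% of all genes tested. On the log2 scale, the median over the whole table was -0.02 in that fit and 0.10 with all 8 libraries. The counts and medians without WT1 given below stand against these levels.

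Of 9 tested genes used elsewhere as outer hair cell genes (of 10 listed), 0 were called, 2 had estimates below 0 and the median log2 fold change was 0.19. Without WT1 the median was 0.05 and 1 was called, higher in KO (Pkhd1l1). Among them the calcium buffer gene Pvalb, also used by neurons, had a log2 fold change of 0.06 (adjusted p = 0.992). Of 15 genes of all hair cells, 0 were called, 4 were below 0 and the median was 0.07, and their summed FPKM was 55.3 to 97.8 in WT and 71.5 to 88.8 in KO. The direction of this list turned on WT1 and on scaling: without WT1, 11 of the 15 were below 0 with a median of -0.13 and 1 was called (Gfi1, higher), and after median-ratio scaling 8 were below 0 with a median of -0.02. Of 6 inner hair cell genes, 0 were called and the median was -0.08, and their summed FPKM was 43.9 to 60.0 in WT and 46.3 to 61.3 in KO. Without WT1 the median was -0.36, 5 of the 6 were below 0 and 1 was called lower (Slc7a14, -0.53, adjusted p = 0.211). The inner hair cell sum in WT1 (43.9 FPKM) was largely Atp2a3, at 28.2 FPKM there and 5.29 FPKM in WT3. Atp2a3 was highest in WT1, whereas Otof, Slc17a8, Slc7a14, Tbx2 and Dnajc5b were lowest in WT1, so the sum hides opposite patterns. Pan hair cell, inner hair cell and outer hair cell lists alike thus had WT and KO sums that overlapped.

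On the motor side, 7 of 10 other genes of the SLC26 family of anion transporters were tested, 0 were called and the median was 0.13 (-0.07 without WT1). Slc26a4, the pendrin gene of the cochlear lateral wall, had the highest level of the family (9.71 FPKM in WT1 to 32.7 FPKM in WT3) and a log2 fold change of 0.13 (adjusted p = 0.983). On the attachment side, 1 of 6 genes of the tectorial membrane and the top connectors was called. Tectb, which encodes beta-tectorin of the tectorial membrane, was 0.824, 1.58, 1.95 and 1.40 FPKM in WT1 to WT4 and 0.362, 0.462, 0.554 and 0.936 FPKM in KO1 to KO4. WT1 lay below KO4, and the other WT libraries lay above all KO libraries. Tectb fell by 1.19 on the log2 scale (standard error of 0.36, limma, adjusted p = 0.947, against 0.0101 before adjustment), it remained called in each alternative in which it was tested, and it did not pass adjustment. Tecta (-0.13), Ceacam16 (0.20), Otog (-0.38), Otogl (0.03) and Otoa (0.05) were not called (adjusted p from 0.961 for Ceacam16 to 0.996 for Otogl).

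On the efferent side, 10 genes that work with the receptor and the channel were tested and 0 were called, with 5 below 0 and a median of 0.00 (-0.0028), which was -0.37 without WT1. Rapsn, whose product clusters acetylcholine receptors, had a log2 fold change of 0.51 (adjusted p = 0.947), and Ric3, whose product helps to assemble them, -0.10 (adjusted p = 0.983). Without WT1, 3 of the 10 were called lower in KO, namely Cacna1d (-0.47, adjusted p = 0.243), Atp2b2 (-0.67, adjusted p = 0.206) and Ric3 (-0.38, adjusted p = 0.246). The summed FPKM of the 10 was 78.1 in WT1 and 194 to 223 in the other WT libraries, and 121 to 210 in KO. The calls thus came with the removal of the WT library with the lowest sum.

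The cell bodies of the efferent fibres lie in the brainstem, outside the cochlea. Of the 4 transmitter genes listed, Chat, the gene of acetylcholine synthesis, was listed at 0 in all 8 libraries, and Slc18a3, the gene of the vesicular acetylcholine transporter, was listed at 0 in the 4 WT libraries and at 0.037 to 0.053 FPKM in KO. Only Calca of the 4 passed the filter, at 0.750 to 49.3 FPKM and a log2 fold change of 0.97 (adjusted p = 0.977).

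Of the other nicotinic receptor genes, 6 of 14 were tested and 0 were called. Chrna4 had the lowest p of them (log2 fold change of -0.57, adjusted p = 0.947), and without WT1 it was called lower (-0.82, adjusted p = 0.148). Chrna6 had an estimate in the other direction (0.73, limma, adjusted p = 0.947). The median of the 6 was 0.14, with 3 below 0, and it was -0.30 without WT1. Of the other SK channel genes, 2 of 3 were tested and 1 was called. Kcnn4, a calcium-activated potassium channel gene of red cells and lymphocytes, was 2.64, 2.80, 1.64 and 3.50 FPKM in WT1 to WT4 and 6.68, 8.37, 7.42 and 3.99 FPKM in KO1 to KO4, with no overlap. It rose by 1.29 on the log2 scale (standard error of 0.30, adjusted p = 0.922, against 0.00216 before adjustment). Kcnn2, the hair cell channel gene, did not pass the same test, and the difference between the 2 genes was not tested.

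Of the other Ikaros family genes, 4 were tested and 0 were called. Ikzf1 (log2 fold change of 1.36, adjusted p = 0.947) and Ikzf3 (1.73, adjusted p = 0.947), which act in blood cells, were called higher in KO without WT1 (1.95, adjusted p = 0.145, and 2.30, adjusted p = 0.173). The ratio of Ikzf2 to Ikzf1 FPKM was 0.293 in WT1, 6.65 in WT3, 1.59 in WT2, 1.39 in WT4 and 0.437 to 0.769 in KO. Ikzf2 itself was lowest in WT1, where Ikzf1 was highest (11.6 FPKM), but after median-ratio scaling it was lowest in KO4 (4.15 scaled FPKM, against 4.38 in WT1). The part of blood cells in the Ikzf2 level was not tested. Of the T cell genes, 3 of the 4 analysed here were tested, and Cd4 was called (log2 fold change of 0.97, adjusted p = 0.947). Cd3e (-0.06, limma, adjusted p = 0.990) and Foxp3 (0.38, limma, adjusted p = 0.968) were not called.

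Markers of other tissues were read as well. All 9 marrow and blood genes had estimates above 0 (median of 2.32), 1 was called (Hbb-bt, 1.83, adjusted p = 0.947), and all 9 were called without WT1. Of 5 bone genes, 0 had estimates below 0 and 1 was called, Col1a1, the only one of them whose groups did not overlap (log2 fold change of 1.28, adjusted p = 0.947). According to the study, collagen genes are among those that the miR-29 family may suppress. The parts of bone and of the deleted miRNA in the Col1a1 level were not tested. Of 5 skeletal muscle genes, Mylpf was called (2.48, adjusted p = 0.947), and the muscle sum was 272 FPKM in KO3 against 0.471 to 24.0 FPKM in the other libraries. Of 8 supporting cell genes (median of -0.03), 7 spiral ganglion neuron genes (0.13), 2 otoconia and vestibular genes (0.06) and 4 brain and glia genes (-0.30), 0 were called, and without WT1 all 4 brain and glia genes were called lower, and the medians were -0.26 for supporting cells, -0.26 for spiral ganglion neurons and -0.50 for otoconia and vestibular genes. The calls of Hbb-bt, Mylpf and Cd4 were lost without WT3 (log2 fold changes of 1.06, 2.06 and 0.87), without WT2 (1.82, 2.44 and 0.81) and, for 1 or more of them, without each other library except WT1. All 3 were also lost with the replicate block, and those of Hbb-bt (1.73) and Cd4 (0.87) under median-ratio scaling. The part of these tissues in the levels of the 7 genes was not tested.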

How the data were processed

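The authors mapped paired-end reads with Hisat2 2.0.4 and deposited FPKM per gene for 4 WT and 4 KO cochlear libraries. The paper's legend for its own RNA comparison gives a smaller number per group, and which libraries it used is not stated. Their counting tool and annotation are not given in the sources used here. The submitters' processing notes name mm9, but of 21895 gene identifiers 21760 were in GENCODE release 21 (GRCm38) and 19771 had its coordinates, which are the ones printed. Every library column was used (0 left over). Groups and replicate numbers came from the sample labels.

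Genes whose mean reached 0.5 FPKM were tested on log2(FPKM + 0.1) with limma 3.58.1 in R 4.3.3 (genotype only, moderated variances with a trend, two-sided) on all 8 libraries. A fold change is on this scale, which understates the change of low genes. Called means an unadjusted p under 0.05. Adjusted p is by Benjamini-Hochberg over all tested genes. The study's count test was not repeated because FPKM are not counts. Exact permutation tests used SciPy 1.17.1, and the fit was tested on simulated data.

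The 7 genes, the lists and the correlations were chosen with earlier results of these data known. Named are all 7, the called genes of each list (and others in it by role, chosen after their values were seen) and the genes closest in pattern. Alternatives were a pseudocount of 1, no filter, a minimum of 1 FPKM, median-ratio scaling, quantile normalization, no trend, a replicate block, the libraries numbered 1 to 3 and each library left out. Scaling without WT1 was added after seeing the data.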

Additional observations from a re-analysis of the deposited data

Results flagged for a closer look

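No library stood far from its group in any of the 7 genes. Of 32 groups of 4 libraries examined, 2 had 1 library far from the other 3 by this criterion, and both are of markers of other tissues. At 95%, 1 in 20 independent groups would be flagged, but these groups share their libraries and are not independent. The cause of the 2 flags was not tested. Cd4 was 1.65 FPKM in WT1 against 0.506 to 0.618 FPKM in the other WT libraries. Mylpf, a myosin light chain gene of skeletal muscle, was 43.5 FPKM in KO3 against 1.48 to 4.52 FPKM in the other KO libraries.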

How the results depend on the processing

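None of the 7 genes was called in any of 18 settings (17 for Chrna9, which a minimum of 1 FPKM left untested), and the lowest p was 0.0734, for Kcnn2 after median-ratio scaling without WT1. Leaving out 1 library at a time, 347 to 2922 of all tested genes and 4 to 31 of the listed genes were called, against 767 and 6. The high ends were without WT1 and the low end for all genes without KO3 (377 without KO2). With median-ratio scaling and without WT1, an alternative chosen after seeing the data, the counts were 3252 and 31. Scaling by the median ratio alone moved the share of called genes higher in KO from 90.1% to 52.5%. The cause was not tested.

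The log2 fold changes of 5 of the 7 genes changed sign in some setting, none past the threshold. With 1 library left out at a time they ran from -0.33 to 0.15 for Slc26a5, -0.22 to 0.11 for Strc, -0.19 to 0.067 for Ikzf2, -0.40 to 0.13 for Chrna9 and -0.12 to 0.45 for Chrna10, and kept their sign for Ocm (-0.32 to -0.12) and Kcnn2 (-0.33 to -0.04). Under quantile normalization Chrna9 was -0.55, Strc -0.31 and Chrna10 -0.069. Chrna10 was also -0.11 with scaling and without WT1, and Chrna9 was 0.072 in the 6 libraries numbered 1 to 3. The log2 ratio differences ran from -0.0075 to 0.20 for Slc26a5 to Otof, -0.049 to 0.45 for Slc26a5 to Myo7a and 0.14 to 0.50 for Chrna10 to Chrna9, and the last was -0.042 in the 6 libraries. The correlation of Slc26a5 with Myo7a was -0.106 after scaling.

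WT and KO libraries share replicate numbers, but the deviations of same-numbered libraries correlated at 0.419, -0.240, -0.170 and 0.210, so the numbers were not taken to pair them. With the replicate block 838 genes were called (738 higher, 100 lower), 5 of them listed and 0 of them among the 7. The log2 ratios within pairs gave exact permutation p of 0.5 (Otof), 0.625 (Myo7a) and 0.625 (Chrna9), where the smallest possible is 0.125. FPKM carry no counts, so counting error could not be given, and it bears most on Chrna9, at under 1 FPKM on average.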
